A study of Mus musculus with 20 samples.

Results

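Transcripts of 10 enzymes that remove superoxide and peroxides were examined in the hippocampus of young adult mice after gestational exposure to nPM, the nano-sized particulate matter of urban air. The 10 genes were the superoxide dismutases Sod1, Sod2 and Sod3, catalase (Cat), the glutathione peroxidases Gpx1 and Gpx4, and the peroxiredoxins Prdx1, Prdx2, Prdx5 and Prdx6. The set was chosen as a family, with earlier results of these data known, its members were matched by symbol, and all 10 were found among the 48709 genes of the deposited gene map. All 10 also passed the filter on low counts, which kept 19797 genes for testing. Together they held 0.0688 to 0.116% of the counts of a library.

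The RNA-seq libraries came from 20 C57BL/6J mice (C57BL/6 in the labels), with 5 in each of 4 groups, namely control female, nPM female, control male and nPM male. Dams of the nPM groups inhaled nPM at 300 µg per m3 by the study's methods (the sample labels have mg in place of µg) in daily sessions of 5 h, 3 days a week, from gestational day 2, and control dams inhaled filtered air. The offspring themselves were not exposed after birth. Tissue was the hippocampus of one hemisphere from brains perfused with saline. By the labels, females were 17.71 to 18.29 weeks old and males 18.57 to 19.14 weeks old. Sex and age cannot be told apart. The methods describe injection of EdU, a label of dividing cells, for males, and also speak of injection of all animals, so that a difference between the sexes in this injection cannot be told apart from sex either. By the methods, offspring of 5 litters per exposure group were used, and the litter of each library is not given in the sources used here, so that samples may share a litter and p-values measure the spread between these samples.

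Superoxide is a by-product of respiration and of several oxidases. Superoxide dismutases convert it to hydrogen peroxide, which catalase splits to water and oxygen, and which glutathione peroxidases and peroxiredoxins reduce at the expense of glutathione or thioredoxin. Neurons combine a high oxidative metabolism with membranes rich in oxidizable lipids, and the brain relies on these enzymes throughout life.

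Library totals ran from 19092067 to 38663408 reads on genes, with a median of 29468930. Mitochondrial genes held 11.1 to 15.7% of them. All 8 markers of hippocampal neurons were present in every library, with a summed expression of 430 to 661 CPM (read counts scaled to library size, with TMM normalization between libraries). The library of nPM female replicate 4 had the lowest total, the highest mitochondrial share and the lowest sum of 20 ribosomal protein genes, 2113 CPM against up to 3962 CPM elsewhere. It also held the lowest value of 5 of the 10 enzymes among the 20 libraries. A set of 8 choroid plexus markers, such as transthyretin, varied the most of the cell type lists. Their sum was 34.8 to 501 CPM in control females, 55.8 to 8262 CPM in nPM females, 34.5 to 7378 CPM in control males and 63.2 to 5588 CPM in nPM males, with none of the 8 at 0 in any library. In bulk tissue, more cells of a type and more RNA per cell cannot be told apart.

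The promoters of these genes were searched for the antioxidant response element, through which the factor Nrf2 acts on many oxidative stress genes, since the enzymes varied together from animal to animal as described further on. RefSeq entries of 300 bases on GRCm38.p6, with 250 bases before and 50 after a transcript's start, matched 8 of the 10 enzymes with 11 entries. The core of this element, TGACNNNGC, searched on both strands, was found in 2 of the 11 entries, those of Sod1 and Prdx1, and in 12.4% of all 32851 entries. The GC box GGGCGG was found in 10 of the 11 entries and in 35.7% of all entries. Gpx4 had several of the 11 entries. Counted by gene, the core was found for 2 of 8 enzymes and for 14% of all genes with an entry. The GC box was found for 8 of 8 enzymes and for 38.2% of these genes. Both promoters with the core are shown 5′ to 3′, at chr16:90220512-90220811 on the plus strand for Sod1 and chr4:116685349-116685648 on the plus strand for Prdx1, with the match in capitals.
Sod1: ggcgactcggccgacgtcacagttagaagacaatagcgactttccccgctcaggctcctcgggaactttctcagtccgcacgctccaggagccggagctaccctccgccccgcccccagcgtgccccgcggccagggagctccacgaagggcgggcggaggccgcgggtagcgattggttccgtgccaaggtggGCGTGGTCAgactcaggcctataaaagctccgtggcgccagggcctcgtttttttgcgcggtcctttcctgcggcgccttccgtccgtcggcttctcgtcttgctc
Prdx1: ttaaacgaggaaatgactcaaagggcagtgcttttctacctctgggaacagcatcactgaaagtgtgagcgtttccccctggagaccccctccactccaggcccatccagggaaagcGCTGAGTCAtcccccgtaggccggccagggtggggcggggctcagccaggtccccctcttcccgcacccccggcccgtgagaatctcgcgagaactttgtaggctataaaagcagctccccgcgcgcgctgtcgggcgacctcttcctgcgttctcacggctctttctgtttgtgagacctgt
In both, the core was on the opposite strand to the gene. A match of letters is a description of the sequence, not a measured binding site.

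Expression per length of transcript (RPKM, reads scaled to exon length and library size) set the enzymes in an order that was steady at both ends. Sod1 (chr16:90220742-90226322, plus strand, mm10), the copper and zinc dismutase of the cytosol, was the most abundant in all 20 libraries at 167 ± 22.9 RPKM (SD, n = 20), above 99.3% of the genes tested. Sod3 (chr5:52363791-52371418, plus), the secreted dismutase, was the least abundant in all 20 libraries at 0.963 ± 0.623 RPKM, above 27.3% of the genes tested. Cat (chr2:103453849-103485160, minus), the peroxisomal enzyme, had 16.7 ± 2.63 RPKM. Gpx1 (chr9:108338903-108340343, plus), a selenoprotein of cytosol and mitochondria, had 14.97 ± 3.37 RPKM. These last enzymes lay below every other member but Sod3.

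The middle of the order was crowded. Gpx4 (chr10:80047166-80056439, plus), the selenoprotein that reduces lipid hydroperoxides in membranes, had 62.3 ± 18.3 RPKM. Prdx5 (chr19:6906697-6910106, minus), a thioredoxin-dependent enzyme of mitochondria, peroxisomes and cytosol, had 47.6 ± 8.71 RPKM. Prdx2 (chr8:84969587-84974834, plus), a peroxidase of the cytosol, had 44.5 ± 6.49 RPKM. These and the next members changed places from library to library. Sod2 (chr17:13007839-13018119, plus), the manganese dismutase of the mitochondrial matrix, had 41.2 ± 5.17 RPKM. Prdx1 (chr4:116685544-116700822, plus), another cytosolic peroxidase, had 36.0 ± 6.32 RPKM. Prdx6 (chr1:161240112-161251219, minus), which uses glutathione and also has phospholipase activity, had 30.2 ± 3.32 RPKM. The ranges over the 20 libraries failed to overlap between neighbours at only 3 steps of the order, from Sod1 to Gpx4, from Prdx6 to Cat and from Gpx1 to Sod3. RPKM divides by the union of all annotated exons, so that rarely used long isoforms lower it.

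**Figure D1:**
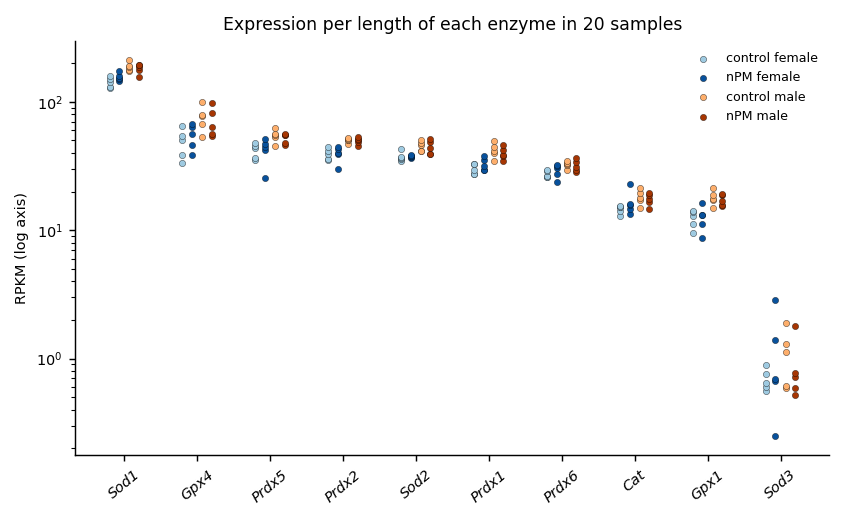
RPKM on a log axis (y) of each enzyme (x, from highest to lowest mean), with 1 point per library and the 4 groups by color. Sod1 (128.5 to 213 RPKM) is above and Sod3 (0.249 to 2.87 RPKM) below all others in every library, while the 6 enzymes from Gpx4 to Prdx6 overlap.

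The enzymes also differed in how much they varied among samples of a group. Sod1 had a within-group SD of 0.12 on the log2 CPM scale, and 11.8% of the genes tested had a lower one. Sod2 and Prdx6 were similar, at 0.13 and 0.14. Sod3 had an SD of 0.83, higher than in 93.3% of the genes tested, where the median gene had 0.26. Sod3 had 17 to 325 counts per library, so that counting error adds to its spread, whereas each other member had at least 229. Gpx4 was the next most variable, at 0.36.

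Some counts may hold reads of neighbours. Prdx2 shares 181 bases with Rnaseh2a and 351 bases with Junb, and Prdx5 shares 409 bases with Trmt112, all on the opposite strand. Whether the counting used strand is not given in the sources used here. The neighbours were low beside the enzymes. Rnaseh2a had 156 to 577 counts and Junb 297 to 858, against 1677 to 6058 for Prdx2. Trmt112 had 85 to 390 against 996 to 5138 for Prdx5. These counts do not give the number of reads in the shared bases. The listed copies Prdx6b and Prdx6-ps2 had at most 2 counts, and Prdx2-rs3 had 0, in any library.

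The first comparison asked whether gestational nPM altered the enzymes in adult offspring. It did not detectably do so. In all 20 mice, with sex as a covariate, 0 of the 10 passed p under 0.005 by limma-voom, where 0.141% of the genes tested did. In males 0 of 10 passed, beside 0.207% of genes, and in females 0 of 10, beside 0.0909%. The effect of nPM in males minus that in females was also called for 0 of 10, beside 0.217% of genes. The count was 0 of 10 in each of these comparisons at an unadjusted p under 0.05, which 2.1% of genes passed in both sexes, 4.28% in males, 1.99% in females and 3.79% for the difference, and 0 of 10 were called by the edgeR quasi-likelihood and DESeq2 tests. No gene at all had an adjusted p under 0.05 in these comparisons (limma-voom).

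For most enzymes the data bound the effect averaged over both sexes to within a small range. The 95% interval of the nPM effect was -5.16 to 11.8% for Sod1, -8.99 to 7.07% for Sod2 and -8.61 to 9.05% for Prdx2. It was -6.63 to 10.95% for Prdx6, -7.91 to 13.0% for Prdx1 and -8.31 to 17.5% for Cat. These 6 intervals were the narrowest of the 10. They were wider for Gpx1 (-14.2 to 12.5%), Prdx5 (-15.5 to 12.1%) and Gpx4 (-16.6 to 26.6%). For Sod3 the interval ran from -38.5 to 60.1%, so that its change was poorly bound here. These intervals are for an average of the sexes and do not bound a change within a sex. In females every interval was wider, such as -1.3 to 26.65% for Sod1, -5.8 to 38.6% for Cat and -13.3 to 52.5% for Gpx4. In males the same enzymes had -14.4 to 7.9%, -18 to 11.9% and -30 to 24%. The male intervals of Prdx2 and Prdx5 were no wider than those of both sexes together.

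**Figure D2:**
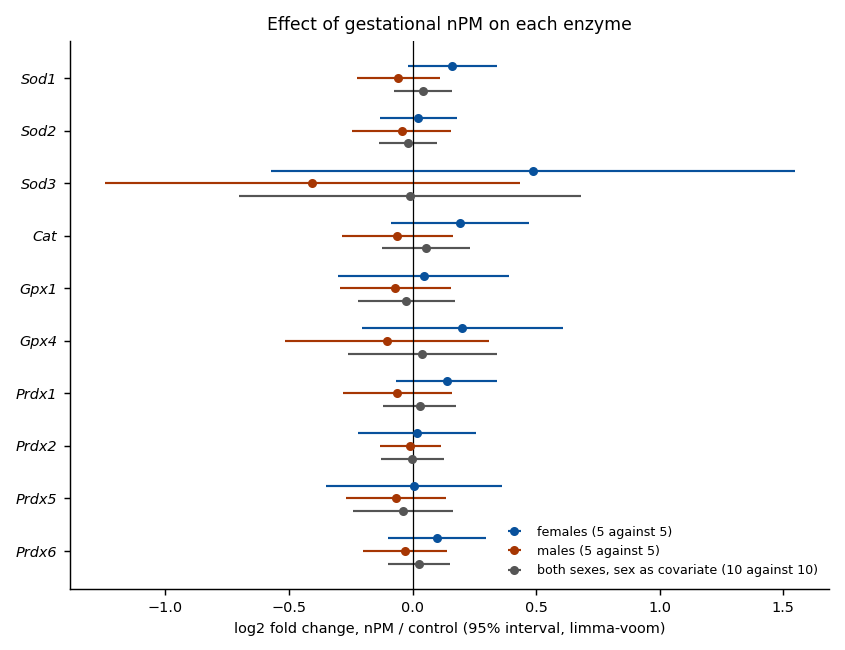
log2 fold change of nPM over control (x) for each enzyme (y), with 95% intervals from limma-voom, in females, in males and in both sexes with sex as covariate. All 30 intervals include 0; the points lie right of 0 in females and left of 0 in males, closest to 0 for Prdx5 in females (0.01) and Prdx2 in males (-0.01), though 4 female and 3 male points change side under an alternative or without 1 library.

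The point estimates leaned opposite ways in the sexes, within their error. In males all 10 were below 0, with a median log2 fold change of -0.06, and 50.4% of all genes tested were below 0. Without one library, Gpx4, Prdx2 and Prdx6 each turned above 0 in 1 fit. In females all 10 were above 0, with a median of 0.12, where 51.2% of all genes were above 0, but Sod2, Gpx1, Prdx2 and Prdx5 turned below 0 in at least 1 alternative, such as age as a covariate for the last 3 and scaling over all 20 libraries for Prdx5. The difference between the sexes was negative for all 10, against 47.5% of genes, but the value of Prdx2 changed sign when choroid plexus markers were a covariate, and those of Prdx2 and Prdx5 without single libraries. The choroid plexus markers leaned the same ways, with a median log2 fold change of 1.03 in females, -0.60 in males and -1.61 for the difference between the sexes, and their part in the lean was not tested beyond the fits with them as a covariate. Enzymes that vary together, as described further on, tend to share their direction, and a lean of all 10 is not 10 separate results.

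Sod1 came nearest to a change. In control females it had 102, 91.7, 83.0, 96.6 and 84.1 CPM (91.5 ± 8.18, SD, n = 5), and in nPM females 112, 94.4, 97.1, 103 and 99.5 CPM (101 ± 6.71). In control males it had 123, 120.2, 112, 138 and 115 CPM (122 ± 9.93), and in nPM males 115, 125, 124, 120.1 and 101 CPM (117 ± 9.88). All 5 nPM females were above the median of the control females, and the groups overlapped in both sexes. The log2 fold change was 0.16 ± 0.08 (SE) in females, with an adjusted p of 1 by limma-voom. The two-sided exact permutation test gave p = 0.0794 in females and 0.532 in males, where 5 against 5 cannot give less than 0.00794. The male effect minus the female effect was -0.20 ± 0.11, with an adjusted p of 0.987 by limma-voom.

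For Sod2, the mitochondrial dismutase, no difference with nPM was detected in either sex. Its mean was 143 ± 12.3 CPM in control females and 144 ± 3.19 CPM in nPM females. In males it was 174 ± 15.2 CPM in controls and 169 ± 21.6 CPM after nPM. The 95% interval of the nPM effect was -8.79 to 13.2% in females and -15.7 to 11.5% in males.

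Sod3, the extracellular dismutase, had the largest and least certain estimates, and they moved with single libraries and with the test. In control females it had 2.85, 2.25, 2.09, 2.39 and 3.34 CPM, and in nPM females 10.7, 2.48, 2.60, 0.931 and 5.19 CPM. In control males it had 2.27, 4.86, 2.22, 7.13 and 4.22 CPM, and in nPM males 1.96, 2.88, 6.71, 2.21 and 2.69 CPM. The nPM females held both the highest and the lowest value of the 20 libraries. The log2 fold change was 0.49 ± 0.49 in females and -0.41 ± 0.39 in males (adjusted p = 1 and 0.963, limma-voom). Without nPM female replicate 1 the female value was 0.03, and without replicate 4 it was 0.86. The test mattered as well, since the female value was 0.80 by edgeR and 0.79 by DESeq2, and the value in both sexes went from -0.01 to 0.22 with each.

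Catalase followed the same libraries. In control females Cat had 40.4, 33.8, 36.5, 39.7 and 39.3 CPM, and in nPM females 59.7, 38.2, 42.0, 35.2 and 41.4 CPM. In control males it had 39.2, 50.9, 44.7, 55.6 and 46.6 CPM, and in nPM males 46.0, 49.0, 50.9, 38.4 and 43.0 CPM. The same nPM female was highest for Sod3 and for Cat. The log2 fold change in females was 0.19 ± 0.13 and fell to 0.06 without that library (adjusted p = 1 by limma-voom in both fits). In males it was -0.06 ± 0.10.

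Among the glutathione peroxidases, Gpx4 varied widely in every group. In control females it had 87.5, 111, 66.5, 92.8 and 57.7 CPM, and in nPM females 97.5, 110.5, 79.6, 66.0 and 117 CPM. In control males it had 91.3, 117, 137, 133 and 173 CPM, and in nPM males 93.9, 169, 109.6, 141 and 96.2 CPM. The control and nPM ranges lay over each other in both sexes, and the log2 fold change was 0.20 ± 0.19 in females and -0.10 ± 0.19 in males. Leaving out 1 library gave 0.09 to 0.32 in females and -0.24 to 0.01 in males. Gpx1 was at 17.7 ± 2.77 CPM in control females and 18.0 ± 4.11 CPM in nPM females. It was at 25.8 ± 3.48 CPM in control males and 24.7 ± 2.50 CPM in nPM males. Both differences were well inside the SD of a group.

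The peroxiredoxins overlapped between control and nPM as well. Prdx2 had 127, 119, 106, 136 and 108 CPM in control females and 137, 123, 131, 91.8 and 119 CPM in nPM females. It had 142, 152, 155, 158 and 154 CPM in control males and 153, 161, 148, 157 and 139 CPM in nPM males. Its nPM effect in males, -0.01 ± 0.06, was the most tightly bound value within a sex, with a 95% interval of -8.87 to 8.35%. Prdx5 had 96.2, 93.5, 75.7, 102 and 77.5 CPM in control females and 109, 95.6, 99.9, 54.5 and 90.5 CPM in nPM females. It had 96.5, 114, 118, 134 and 121 CPM in control males and 119, 119.7, 118, 102 and 97.6 CPM in nPM males. The value of 54.5 CPM, in nPM female replicate 4, stood far below all others, and without that library the female log2 fold change of Prdx5 went from 0.01 to 0.17 (adjusted p = 0.979, limma-voom).

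Prdx1 and Prdx6 had higher means in nPM than in control females, within their spread. Prdx1 had 91.1 ± 8.24 CPM in control females and 99.4 ± 11.1 CPM in nPM females. In males it had 127 ± 16.7 CPM in controls and 121 ± 13.6 CPM after nPM. Prdx6 had 131 ± 8.34 CPM in control females and 139.8 ± 17.1 CPM in nPM females, and without nPM female replicate 4 its log2 fold change went from 0.10 to 0.17 (adjusted p = 0.979, limma-voom). In males Prdx6 had 156 ± 9.04 CPM in controls and 153 ± 16.5 CPM after nPM.

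**Figure D3:**
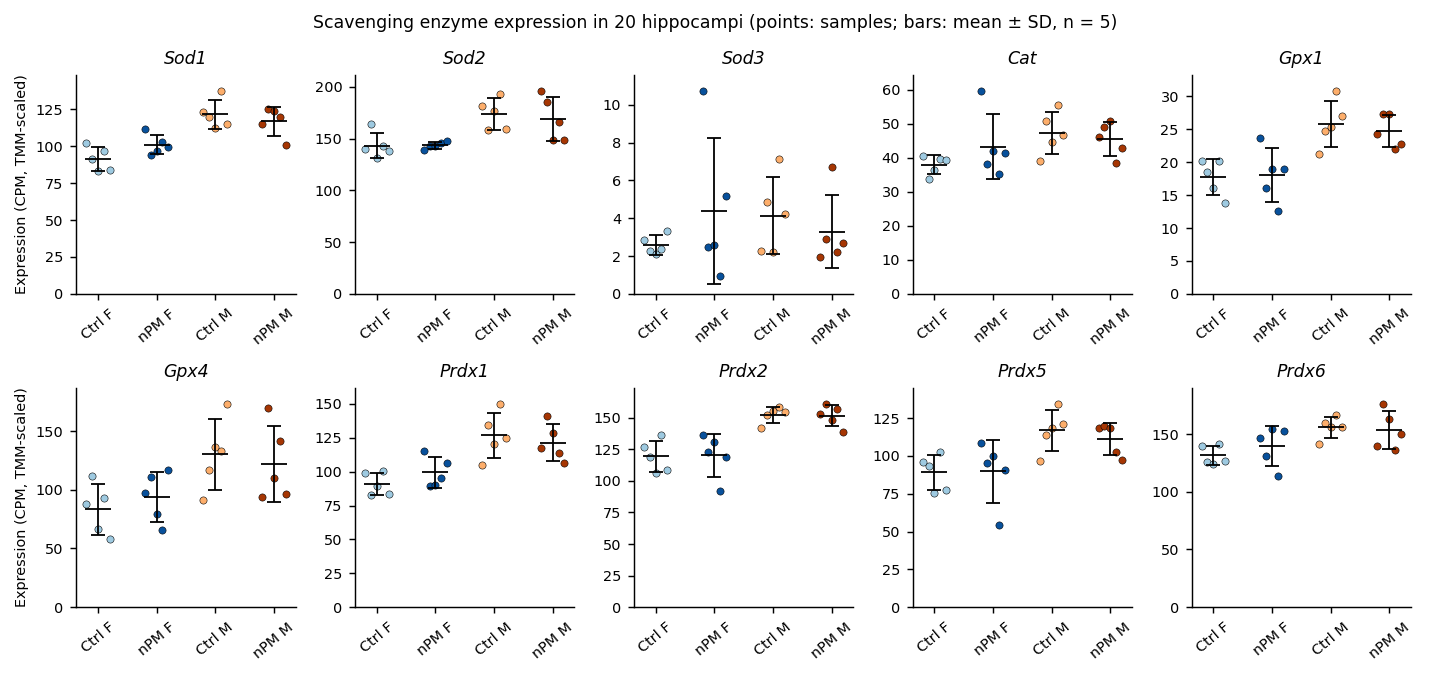
CPM (y, from 0) of each enzyme in the 20 libraries by group (x), with points for samples and bars for mean ± SD of 5. Control and nPM points overlap in both sexes in every panel, and Prdx2 is the enzyme whose 10 males (139 to 161 CPM) all sit above the 10 females (91.8 to 137 CPM).

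The males had more of nearly all these transcripts than the females. With exposure as a covariate, all 10 log2 fold changes of males over females were above 0, with a median of 0.33. 8 of the 10 passed p under 0.005 and an adjusted p under 0.05 (limma-voom), all higher in males. This is to be read beside the background, as 31.1% of all genes tested passed p under 0.005 between males and females, 13.9% passed and were higher in males, and 40.4% had an adjusted p under 0.05. The same 20 ribosomal protein genes counted above were called higher in males in 18 of 20 cases, with sums of 2979 to 3962 CPM in males and 2113 to 3031 CPM in females. Of 8 endothelial markers, 6 were called lower in males. Of 8 markers for each type, 4 of astrocytes, 3 of microglia and 1 of oligodendrocytes were called higher in males, and 2 of neurons lower. The calls did not always follow their list. The neuron list had a median log2 fold change of 0.09, and 0 of the 8 hippocampal neuron markers were called. The median sum of the astrocyte markers was 6145 CPM in males and 6567 CPM in females. Of the 8 choroid plexus markers 0 were called, but their median log2 fold change was 1.24, with a median sum of 1909 CPM in males and 187 CPM in females. The part of such differences in the values of the enzymes was not tested.

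The largest differences were in the glutathione peroxidases. Gpx4 was 42.3% higher in males (95% interval 15.5 to 75.3%, adjusted p = 0.00788, limma-voom). Gpx1 was 40.8% higher (22.9 to 61.4%, adjusted p = 0.000355). Gpx4 ranged from 57.7 to 117 CPM in females and from 91.3 to 173 CPM in males, and Gpx1 from 12.5 to 23.6 CPM and from 21.3 to 30.8 CPM, so that both sexes overlapped. Without nPM female replicate 4, Gpx4 missed p under 0.005 (log2 fold change 0.45, adjusted p = 0.0172).

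Prdx1, Prdx5 and Prdx2 had the next largest estimates, with intervals that overlapped those of the other called enzymes. Prdx1 was 30.1% higher in males (17.4 to 44.1%, adjusted p = 0.000284, limma-voom). Prdx5 was 28.7% higher (11.8 to 48.2%, adjusted p = 0.00538). Prdx2 was 27.4% higher (16.6 to 39.2%, adjusted p = 0.000156). Prdx2 was the 1 enzyme with every male above every female, a separation seen for 1.67% of the genes tested. Prdx6 was 14.02% higher (4.6 to 24.3%, adjusted p = 0.0152), the weakest of the called enzymes and below Sod1 and Sod2. Its p rose above 0.005 in 12 of the 20 fits that left out 1 library.

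Of the dismutases, Sod1 was 23.9% higher in males (14.1 to 34.5%, adjusted p = 0.000254, limma-voom). Sod1 had 83.0 to 112 CPM in females and 101 to 138 CPM in males. Sod2 was 19.2% higher (9.89 to 29.3%, adjusted p = 0.00126). It had 131 to 164 CPM in females and 149 to 196 CPM in males, and 1 male lay within the female range for Sod1 and 4 for Sod2. Sod3 did not pass, at 13.7% with an interval of -29.7 to 84.0% (adjusted p = 0.686), and without nPM female replicate 4 its sign turned. Cat did not pass either, at 14.5% with an interval of 1.13 to 29.7% (adjusted p = 0.0757). Without nPM female replicate 1, the animal with the highest Cat, its log2 fold change rose from 0.20 to 0.27 and passed (adjusted p = 0.00416).

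**Figure D4:**
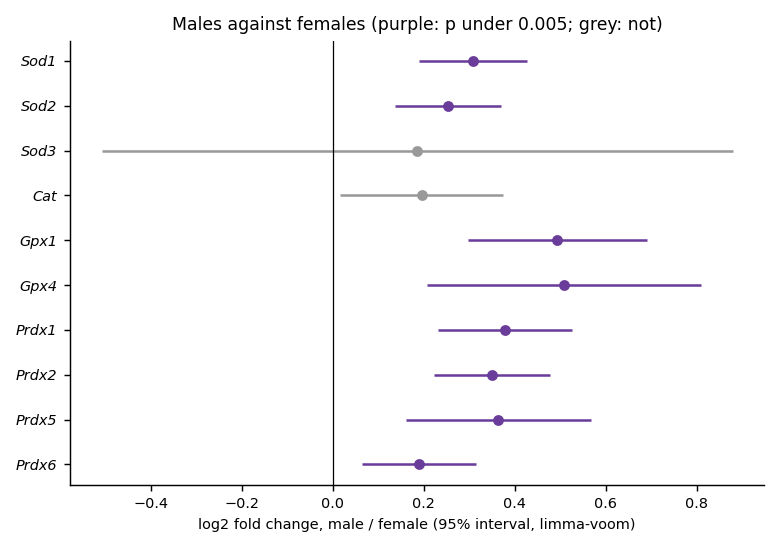
log2 fold change of males over females (x) for each enzyme (y), with 95% intervals from limma-voom with exposure as covariate, purple where p was under 0.005. The 8 purple points lie between 0.19 (Prdx6) and 0.51 (Gpx4), and Sod3 has the widest interval.

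Adding age to the fit removed all of these calls, leaving 0 of 10 enzymes and 84 of all genes at p under 0.005. Sex accounted for 88.8% of the variance of age, so that a sex difference had a standard error about 2.99 times as large with age in the fit. The log2 fold change then was 0.44 for Gpx4 and 0.23 for Sod2, near the values without age, whereas it was 0.01 for Sod1 and 0.07 for Prdx5. Cat and Sod3, which were not called in either fit, changed sign, from 0.20 to -0.18 and from 0.19 to -1.17. With the choroid plexus markers as a covariate, an alternative chosen after seeing the data, 6 of the 10 kept p under 0.005. Gpx4 (log2 fold change 0.44) and Prdx6 (0.15) then missed it, and Sod3 turned to -0.30.

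Within the groups the enzymes rose and fell together from animal to animal. After the group means were removed, 42 of the 45 pairs of enzymes had a positive Pearson correlation of log2 CPM over the 20 libraries, with a median of 0.55. The points share library depth and tissue composition, and the values are given as a description. No values for other gene pairs are given beside them, so that this is not shown to be particular to the enzymes. Prdx2 and Prdx5 were the closest pair at r = 0.93 (rho 0.87), followed by Gpx1 and Prdx5 at 0.90, by Sod3 and Cat at 0.84 and by Gpx1 and Prdx2 at 0.83. Sod2 stood apart, with its r between -0.25 (with Sod3) and 0.35 (with Sod1).

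Sod3 and Cat moved with the markers of the choroid plexus and of ependymal cells. Over the 20 libraries, log2 CPM of Sod3 had r = 0.81 and rho = 0.79 with the marker level. This r was 0.79 in females and 0.88 in males, and 0.74 without the 2 libraries farthest from the median. Sod3 was above 4 CPM in 6 libraries, nPM female replicates 1 and 5, control male replicates 2, 4 and 5, and nPM male replicate 3. Their marker sums were 8262, 1780, 5035, 7378, 2975 and 5588 CPM. nPM male replicate 2, with a sum of 3069.5 CPM, was the only other library with a sum above 1780 CPM, and there Sod3 was at 2.88 CPM. For Cat, r was 0.72 (rho 0.59), for Prdx1 0.62 and for Sod2 0.09. With the markers as a covariate the nPM effect on Sod3 went from 0.49 to 0.21 in females and from -0.41 to -0.24 in males. Markers of ependymal cells, which line the ventricles, had r = 0.78 (rho 0.62) with Sod3 and r = 0.76 (rho 0.71) with Cat. With the group means removed, r of Sod3 was 0.85 with the ependymal and 0.81 with the choroid plexus markers.

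Prdx2, Prdx5 and Gpx1 had the highest correlations with the ribosomal protein genes. For Prdx2, r with their level was 0.96, with 0.95 in females and 0.89 in males. For Prdx5 it was 0.93, with 0.96 and 0.92 in the sexes. For Gpx1 it was 0.94, with 0.84 in each sex. Over all libraries it was 0.85 for Prdx1, 0.81 for Gpx4 and 0.80 for Prdx6. Gpx1 also had r = 0.68 with the ependymal and 0.55 with the choroid plexus markers. The relation to ribosomal protein genes was weaker within the sexes for Sod1, at 0.22 in females and 0.52 in males, and for Sod2, at 0.04 and 0.29. For Prdx1 it was weak in females only, at 0.31, against 0.89 in males. Without the 2 farthest libraries r was still 0.95 for Prdx2, 0.91 for Prdx5 and 0.90 for Gpx1. The cause of these relations was not tested.

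**Figure D5:**
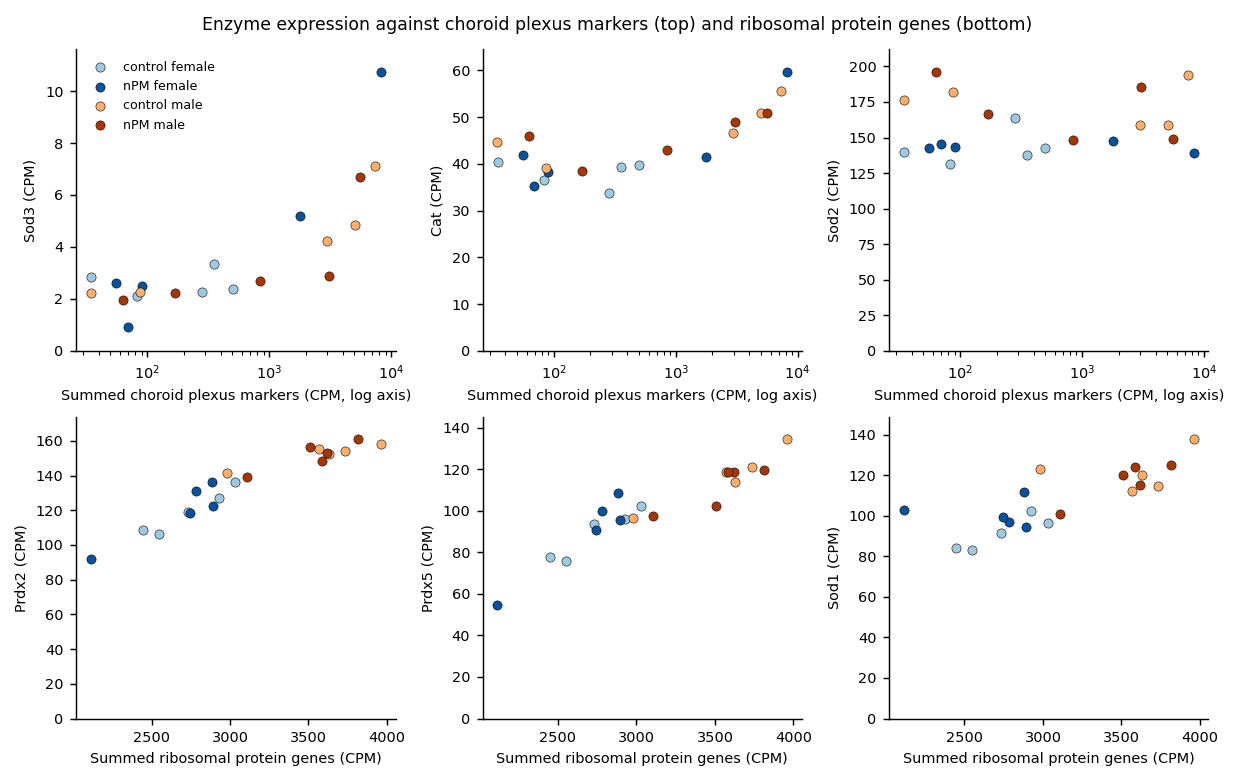
CPM of Sod3, Cat and Sod2 (y) against the summed choroid plexus markers (x, log axis; top) and of Prdx2, Prdx5 and Sod1 against the summed ribosomal protein genes (x; bottom), 1 point per library. Sod3 climbs to 10.7 CPM in the library with the highest marker sum (8262 CPM), Sod2 shows no such slope, and Prdx2 and Prdx5 lie along a line in both sexes.

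The gene whose pattern was most like each enzyme was picked by the highest r over the 20 libraries, with the group means removed. The search covered 11214 protein-coding genes with a mean of at least 5 CPM. Picking the highest of so many raises r, so that these values are a description and were not tested. Prdx2 was closest to Ndufb8 (r = 0.96) and Prdx5 to Ndufa13 (0.97), both subunits of respiratory complex I. Sod1 was closest to Atp5j (0.88), a subunit of the ATP synthase. Gpx1 was closest to Sdhc (0.93), a subunit of succinate dehydrogenase, and Gpx4 to Cox6c (0.78), a subunit of cytochrome oxidase. Sod3 was closest to Pbxip1 (0.96), Cat to Smim1 (0.93) and Prdx1 to Nipsnap2 (0.92). Prdx6 was closest to Phgdh (0.86), an enzyme of serine synthesis, and Sod2 to Tgfb3 (0.79), a growth factor.

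No change after nPM was detected in the wider pathway either. Of 65 genes of 7 lists that supply, regulate or precede these enzymes, 60 passed the filter, and 0 of 60 passed p under 0.005 in any exposure comparison (limma-voom). At an unadjusted p under 0.05 there were 3 of 60 in both sexes, 3 in males, 2 in females and 1 for the difference between the sexes (2.1%, 4.28%, 1.99% and 3.79% of all genes). Those below the filter were Duox1, Dao, Gpx2, Gpx5 and Gpx6. By list, 0 of 10 genes of the thioredoxin system, 0 of 9 for glutathione supply, 0 of 7 for NADPH supply and 0 of 6 regulators such as Nfe2l2 were called. The same held for 0 of 5 other peroxidases of both families, 0 of 12 sources of superoxide and peroxide, and 0 of 11 genes of metal and selenium supply.

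Between males and females, 11 of the 60 were called higher in males and 3 lower, where 31.1% of all genes tested were called and 13.9% were called higher in males. Xdh, xanthine dehydrogenase, whose oxidase form makes superoxide, had 13.2 ± 2.15 CPM in females and 5.31 ± 0.959 CPM in males (SD, n = 10). Its lowest female, 10.1 CPM, was above its highest male, 7.12 CPM, and the log2 fold change was -1.33 ± 0.11 (adjusted p = 9.72e-08, limma-voom). Xdh was thus lower in males, where the enzymes were higher. Txn1, thioredoxin, which recharges peroxiredoxins, had 27.6 ± 3.50 CPM in females and 37.0 ± 3.33 CPM in males (log2 fold change 0.42 ± 0.07, adjusted p = 0.000111). Sephs2, which makes the selenium donor for selenoproteins such as Gpx1 and Gpx4, had 27.5 ± 2.55 CPM and 34.7 ± 2.56 CPM (0.33 ± 0.06, adjusted p = 0.000142). Both differed in the direction of the enzymes they serve. Secisbp2, from the same list of metal and selenium supply as Sephs2, went the other way and was called lower in males (-0.26 ± 0.05, adjusted p = 0.000668, limma-voom).

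The NADPH-forming enzymes split. Idh1, the cytosolic isocitrate dehydrogenase, had 35.7 ± 4.81 CPM in females and 51.0 ± 8.02 CPM in males (0.50 ± 0.09, adjusted p = 0.00021, limma-voom). Me3, a mitochondrial malic enzyme, had 58.1 ± 5.82 CPM in females and 46.3 ± 2.90 CPM in males (-0.32 ± 0.06, adjusted p = 0.000152). By list, the calls between the sexes were 2 higher of 5 other peroxidases, 1 higher of 10 for the thioredoxin system, 3 higher of 9 for glutathione supply and 1 higher and 1 lower of 7 for NADPH supply. Sources of superoxide and peroxide had 2 higher and 1 lower of 12, metal and selenium supply 1 higher and 1 lower of 11, and regulators 1 higher of 6.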

How the data were processed

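RNA-seq of 20 hippocampi was measured. Per the labels and the methods, the authors depleted ribosomal RNA (RiboZero Gold), used HISAT2 for alignment to mm10 and featureCounts 1.5.0-p3 with Gencode M11 for counting, and deposited whole-number counts per gene without normalization. FastQC and Trimmomatic are named in the submitters' processing notes. The authors also deposited a mean RPKM per gene, which matched the counts to 5.09e-11 and was not used in a test, and gene lengths. Replicate pairs of a group differed 14.1 to 76.7 times more than counting noise (40 pairs), so no library was a repeat of another in its group. Pairs across groups were not compared in this way.

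Genes were filtered by edgeR's filterByExpr over the 4 groups (minimum count 10, minimum total 15). limma-voom (limma 3.58.1, edgeR 4.0.16, R 4.3.3) was fitted to all genes kept, with TMM factors from the samples of each fit and an offset of 0.5 counts. A call was p under 0.005, the study's threshold, given beside a Benjamini-Hochberg adjusted p under 0.05 over all genes tested. CPM and RPKM used TMM over all 20 samples (factors 0.958 to 1.06) and the deposited lengths. Single values were compared within a sex by a two-sided exact permutation test. Alternatives were edgeR and DESeq2 1.42.0 tests, RLE normalization, no filter, mitochondrial genes left out, sample quality weights, age, a replicate block, 1 fit of the 4 groups, choroid plexus markers as covariate, and each sample left out. Fits were tested on simulated data. Figures were drawn with Python and matplotlib.

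The named genes are the 10 enzymes, the 5 pathway genes with the smallest p under 0.005 in a comparison, the gene most like each enzyme, and genes that overlap one. Secisbp2 was added as the gene called lower in the list of Sephs2. The enzymes and gene lists were chosen with earlier results of these data known. The check of cell types used the summed CPM of each marker list. Lists of neurons, astrocytes, oligodendrocytes, microglia, red blood cells and meningeal fibroblasts had 0 markers called after exposure. The same held for the lists of hippocampal neurons, endothelial cells, choroid plexus, ependymal cells and ribosomal proteins. The floor of 3 counts corresponded to 0.0776 to 0.157 CPM by library. Intervals are limits of an estimated mean change, computed from the spread between samples, and take no account of shared litters.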

Additional observations from a re-analysis of the deposited data

Results flagged for a closer look

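The 10 enzymes and the 5 pathway genes with the smallest p gave 60 groups of 5 samples. In 3 of them, a sample's gap to its neighbour was large for the range of the group. The measure was Dixon's ratio, which by chance flags about 1 in 20 groups. Prdx5 in nPM female replicate 4 was at 54.5 CPM, where the next lowest of its group was at 90.5 CPM, a ratio of 0.734. Txn1 in the same library was at 22.3 CPM against 28.0 CPM, a ratio of 0.78. Idh1 in control male replicate 1 was at 67.4 CPM, where the next highest of its group was at 55.1 CPM, a ratio of 0.715.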

How the results depend on the processing

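In the 4 exposure comparisons, 980 alternative values of the 10 enzymes held 0 calls, with a smallest p of 0.0303 for Sod1 in the difference between the sexes, without control female replicate 1 (limma-voom, unadjusted). The count of called enzymes was 0 in every fit that left out a sample there. Between males and females it was 8 under both other tests, RLE normalization, no filter and sample quality weights, 7 without mitochondrial genes, 6 with choroid plexus markers as covariate and 0 with age as covariate, where sex accounted for 88.8% of the variance of age. Leaving out 1 sample gave 6 to 9. Same-numbered control and nPM samples of a sex correlated at -0.399 to 0.159 after the group means were removed, so that no pairing by replicate number showed there. Pairing across the sexes was not examined. The replicate block gave 7 called enzymes, with Prdx6 above p of 0.005 (adjusted p = 0.027, limma-voom), and changed no other call. Counts over all genes moved by more than 1.5 times with DESeq2 in males (113 against 41), in females (55 against 18), in both sexes (43 against 28) and for the difference between the sexes (89 against 43). With no filter they were 130, 87, 71 and 149 in that order, and with sample quality weights 53 in both sexes and 44 in females. The edgeR test gave 66 for the difference between the sexes, and choroid plexus markers as covariate gave 75 in males. Leaving out 1 sample moved them to 17 to 47 in both sexes, 23 to 78 in males, 10 to 48 in females and 24 to 77 for the difference, with 47 and 48 without nPM female replicate 4. The order of mean RPKM was the same under RLE normalization and without mitochondrial genes. Depth limits Sod3 most.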
